A study of Mus musculus with 12 samples.

Results

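The nuclear genes of the respiratory chain complexes and their closest named relatives were followed in RAW 264.7 cells, an established mouse macrophage-like line. They were taken as every gene on the array whose symbol begins with Nduf, Uqcr, Cox4 to Cox8 or Atp5, or is Sdha, Sdhb, Sdhc or Sdhd. This gave 93 genes of the 19505 named genes measured, each read by 1 probe set. By complex, 36 were structural subunits of complex I, 8 were complex I assembly factors, 4 belonged to complex II, 8 to complex III, 20 to complex IV and 17 to complex V. Each sample was read on 1 Affymetrix array, 12 in all, with 3 to each of 4 treatments. Every treatment included lipopolysaccharide (LPS), the outer membrane component of Gram-negative bacteria that activates macrophages, at 500 ng/mL, and all cultures were kept for 6 h at 37 °C in 5% CO2. The groups were inulin with TsSP and LPS, TsSP with LPS, inulin with LPS, and LPS alone, with inulin (a plant fructan) at 500 µg/mL and TsSP (the labels' name for a preparation they do not spell out) at 50 µg/mL. No group lacked LPS, so nothing here speaks to LPS itself, and 1 immortal line stands in for macrophages. The groups are called inulin+TsSP, TsSP, inulin and LPS alone below.

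The respiratory chain passes electrons from NADH (complex I) and succinate (complex II) through ubiquinone, complex III and cytochrome c to oxygen at complex IV, and complex V, the ATP synthase, uses the proton gradient that this builds. Each complex combines a few catalytic proteins with many small accessory subunits, some of which exist as isoforms tied to a tissue or to low oxygen. In macrophages stimulated with LPS the chain is known for a turn from ATP production toward succinate oxidation and the release of reactive oxygen species, while glycolysis supplies ATP. The subunits encoded by mitochondrial DNA are not analysed here.

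All signals below are log2 values per probe set, a scale on which 1 unit is 2-fold. A level may be compared between arrays for 1 gene, but not between genes, since each probe set has its own response. The change with TsSP is the mean of the 6 arrays with TsSP (inulin+TsSP and TsSP) minus the mean of the 6 without (inulin and LPS alone), with its standard error (SE). Adjusted p-values are limma's, two-sided, after Benjamini-Hochberg adjustment over all 19505 genes, and a gene was called when that value was under 0.05. The labels do not state whether replicate arrays stem from separate cultures. The p-values set differences between groups against the spread among these 12 samples only, and that spread may be technical. As in any bulk measurement, fewer cells of a type and less RNA per cell cannot be told apart.

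The median over all probe sets lay at 5.27 to 5.3 in inulin+TsSP, 5.26 to 5.3 in TsSP, 5.23 to 5.28 in inulin and 5.16 to 5.28 in LPS alone. More genes were above background with TsSP, at 8925 to 8994 in inulin+TsSP and 9018 to 9059 in TsSP, against 8880 to 8932 in inulin and 8771 to 8837 in LPS alone. The first array of LPS alone had the lowest medians of all 12, at 5.16 over all probe sets, 11.00 over the exon controls and 4.99 over the background probes. Without it, 23 of the 93 genes described below were called higher and 2 lower with TsSP, against 29 and 2 with it. The median of 1324 exon control probe sets, marked as positive controls by their names, lay higher with TsSP, at 11.22 to 11.34 in inulin+TsSP and 11.23 to 11.36 in TsSP, against 11.16 to 11.21 in inulin and 11.0 to 11.18 in LPS alone. Whether what these controls read itself responds to TsSP was not tested, so they are not taken as an outside reference. Of 10 macrophage markers measured, 9 lay above background on all 12 arrays and Mrc1 on none. Their summed log2 signal was 144.4 to 144.8 in inulin+TsSP, 144.6 to 145.1 in TsSP, 143.0 to 144.1 in inulin and 143.1 to 143.8 in LPS alone. Itgam rose by 0.71, Tyrobp by 0.61, Lyz2 by 0.35 and Fcgr1 by 0.27 on the log2 scale with TsSP, and Adgre1, a macrophage surface receptor, fell by 1.1 (each called by limma). The 4 T cell, 2 B cell, 4 epithelial and 2 brown fat markers measured were below background on all 12 arrays. Of 3 fibroblast markers, Col1a2 was below background on all arrays and Col1a1 on all but 1 inulin array. Dcn was above background on all 12, with means of 6.63 in inulin+TsSP and 6.77 in TsSP, against 7.31 in inulin and 7.31 in LPS alone, and fell by 0.61 log2 units (adjusted p = 0.00998). The summed log2 signal of the 3 was 16.7 to 17.7 in inulin+TsSP, 17.0 to 17.6 in TsSP, 17.3 to 18.2 in inulin and 17.8 to 18.8 in LPS alone, and its part in the results was not tested.

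Of the 93 genes, 87 (93.5%) were above the brightest of 23 background probes on every array of at least 1 group, against 9022 (46.3%) of all named genes. The other 6 were Cox4i2, Cox6b2, Cox7b2, Cox8b, Cox8c and Ndufa4l2, all tissue or oxygen isoforms or relatives of complex IV subunits. RefSeq lists 16 pseudogene symbols for 10 of the genes (Atp5c1, Atp5k, Atp5l, Atp5pb, Cox5b, Cox7c, Ndufa12, Ndufab1, Ndufs5 and Uqcrh), and Ndufb4b is a near copy of Ndufb4. Whether their probes also read the copies was not tested, and the values of these genes are uncertain to that extent.

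Promoter windows, from 250 bases before to 50 bases after the start of transcription, were taken from RefSeq (GRCm38.p6) for 77 of the 93 genes. Those printed belong to the 3 genes with the smallest p for a rise with TsSP, and to Ndufaf4, which fell; this choice was made after the values were seen. Capitals mark a motif found on either strand. In Uqcrh (chr4:116075021-116075320, minus strand) it is the ETS motif CCGGAAG, read on the opposite strand as CTTCCGG. In Cox7a2 (chr9:79759804-79760103, minus strand) it is the GC box GGGCGG. In Ndufaf4 (chr4:24897833-24898132, plus strand) capitals mark the NRF1 palindrome (GCGCA, any base, then GCGC) and an overlapping pair of GC boxes. The window of Ndufa4 (chr6:11907401-11907700, minus strand) holds none of the motifs searched.
Uqcrh: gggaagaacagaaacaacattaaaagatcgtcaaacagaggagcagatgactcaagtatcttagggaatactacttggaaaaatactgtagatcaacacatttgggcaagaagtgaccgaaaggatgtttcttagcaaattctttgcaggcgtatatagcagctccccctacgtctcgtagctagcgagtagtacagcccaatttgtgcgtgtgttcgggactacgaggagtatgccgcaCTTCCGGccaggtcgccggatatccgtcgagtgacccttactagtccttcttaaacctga
Ndufa4: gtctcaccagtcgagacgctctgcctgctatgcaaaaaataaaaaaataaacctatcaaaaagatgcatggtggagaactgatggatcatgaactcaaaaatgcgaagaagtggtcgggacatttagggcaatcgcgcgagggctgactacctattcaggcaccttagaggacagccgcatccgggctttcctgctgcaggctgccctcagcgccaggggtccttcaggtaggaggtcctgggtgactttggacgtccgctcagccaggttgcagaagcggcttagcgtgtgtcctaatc
Cox7a2: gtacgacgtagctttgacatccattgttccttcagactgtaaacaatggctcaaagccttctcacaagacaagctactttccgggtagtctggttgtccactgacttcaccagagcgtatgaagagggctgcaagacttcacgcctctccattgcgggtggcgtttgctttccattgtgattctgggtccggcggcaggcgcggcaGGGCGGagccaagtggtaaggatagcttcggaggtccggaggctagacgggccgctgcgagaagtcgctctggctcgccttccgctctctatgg
Ndufaf4: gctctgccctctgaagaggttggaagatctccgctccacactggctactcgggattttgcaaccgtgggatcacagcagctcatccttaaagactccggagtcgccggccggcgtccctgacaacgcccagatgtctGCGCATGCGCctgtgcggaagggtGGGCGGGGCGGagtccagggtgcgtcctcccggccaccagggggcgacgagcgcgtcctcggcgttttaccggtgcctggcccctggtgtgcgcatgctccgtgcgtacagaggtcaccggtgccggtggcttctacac

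NRF1 and the ETS factor GABP are textbook regulators of nuclear respiratory genes. The NRF1 letters were in 24.7% of the 77 windows, against 7.63% of the 15691 windows of all genes. The ETS letters CCGGAAG were in 24.7%, against 13.2% of all, and the YY1 letters AAGATGGC in 14.3%, against 3.64% of all. The hypoxia response core ACGTG was in 23.4%, against 24.0% of all, the E-box CACGTG, which contains that core, in 7.79%, against 9.26%, and the GC box GGGCGG in 45.5%, against 51.2%. Among the 25 windows of genes that rose with TsSP the shares were 20.0% for NRF1, 24.0% for ETS, 20.0% for YY1 and 24.0% for the hypoxia core. Among the 51 windows of genes not called they were 25.5%, 25.5%, 11.8% and 23.5% in the same order. A match is a description of letters and not of a bound site.

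With TsSP, 29 of the 93 genes rose and 2 fell, and most of the rises were small. Uqcrh, the hinge protein of complex III, was the only one called at over 2-fold, and the median over the 93 genes was a log2 change of 0.197. The 29 rises are 31.2% of the set, where 14.8% of all named genes rose and 28.5% of the 9022 genes above background did, so the share of rises lay near that of other expressed genes. The 2 falls, Ndufaf6 and Ndufaf4, are 2.15% of the set, where 11.0% of all genes fell and 20.2% of those above background did. Both encode complex I assembly factors, so none of the 85 structural subunits and their relatives fell by this test. The count of falls depended on the test. Testing only genes above background called 41 of the 93 higher and 4 lower, and a mean-variance trend 42 and 3. Quantile normalization called 25 higher and 4 lower, and centring on the median of named genes 25 and 3. The change was above 0 for 77 of the 93. For comparison the median change was 0.004 over all genes, 0.073 over the genes above background and 0.138 over the exon control probe sets.

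**Figure D1:**
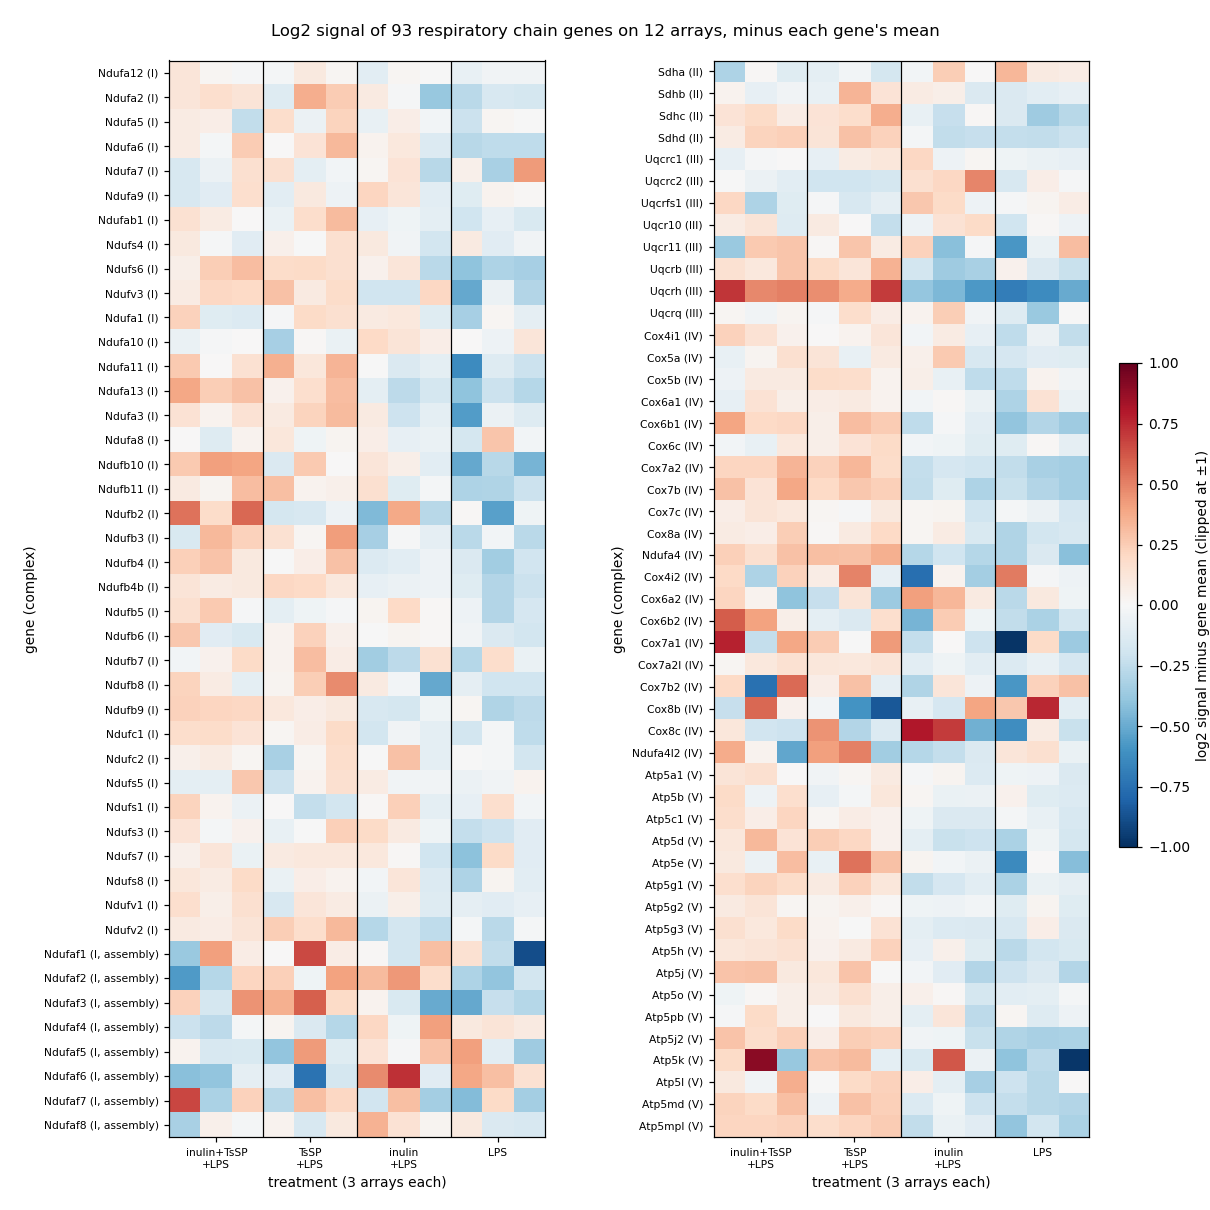
Log2 signal of each of the 93 genes on each of the 12 arrays, minus that gene's mean over the arrays (colour scale clipped at 1 unit either way), with genes grouped by complex down the page and the 4 treatments from left to right. The 6 arrays with TsSP are mostly redder than the 6 without, Uqcrh stands out, and the genes below background such as Cox8b and Cox4i2 vary without order.

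Signals of all 6 arrays with TsSP lay above all 6 without in 22 of the 93 genes (23.7%), where 10.4% of all genes did so, and below in 0, where 7.66% of all genes did so. These shares, and those of the comparisons split by inulin below, are of all genes, and fewer of these than of the 93 were above background. The shares among genes above background were not counted. Array by array, the median signal of the 93 genes was 12.31 to 12.53 in inulin+TsSP, 12.34 to 12.5 in TsSP, 12.0 to 12.27 in inulin and 12.0 to 12.09 in LPS alone, so the ranges with TsSP did not overlap those without.

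The exon controls moved with these changes, and the counts depended on them. When each array was centred on its exon controls, which shifted the median of all genes to -0.153, 8 of the 93 rose (8.6%, with 9.39% of all genes) and 7 fell (7.53%, with 19.6% of all genes), and the median of the 93 was 0.04. The 8 were Uqcrh, Ndufa4, Cox7a2, Cox7b, Ndufa13, Cox6b1, Atp5mpl and Atp5j2. The 7 were Ndufaf6, Ndufaf4, Uqcrc2, Sdha, Ndufa10, Uqcrfs1 and Cox6a2. Of the 93 genes, every rise named below outside those 8 was therefore a call on the signals as deposited and not one relative to the exon controls, and counts after this centring are given below by complex and list. What made the exon controls differ was not tested.

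Complex III held the largest change of the set, and both of its genes that rose encode small subunits. Uqcrh, whose acidic hinge protein helps cytochrome c1 pass electrons to cytochrome c, had signals of 12.31, 12.08 and 12.10 in inulin+TsSP and 12.06, 11.97 and 12.30 in TsSP, against 11.21, 11.15 and 11.02 in inulin and 10.91, 10.97 and 11.09 in LPS alone. Every array with TsSP lay far above every array without, and inulin and LPS alone lay close together. The change with TsSP was 1.08 (SE 0.089, adjusted p = 3.26e-06), or 2.11-fold, at 2.18-fold for TsSP against LPS alone and 2.05-fold for TsSP added to inulin. Among the 9022 genes above background, 958 (10.6%) were called at over 2-fold in either direction, so a change of this size was not rare on these arrays.

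Uqcrb, a small subunit next to the ubiquinone site, had 16.23, 16.18 and 16.35 in inulin+TsSP and 16.27, 16.20 and 16.42 in TsSP, against 15.89, 15.72 and 15.75 in inulin and 16.12, 15.93 and 15.85 in LPS alone. All arrays with TsSP were again above all without, by a narrow margin over 1 array of LPS alone (change 0.40, SE 0.085, adjusted p = 0.00398). The remaining 6 genes of the complex did not pass the test. Uqcrc2, a core protein, had 10.21, 10.15 and 10.11 in inulin+TsSP and 10.01, 10.01 and 10.04 in TsSP, against 10.37, 10.42 and 10.70 in inulin and 10.05, 10.28 and 10.20 in LPS alone. Its change was -0.25 (SE 0.085, adjusted p = 0.0507), with overlapping groups, and it was called lower once arrays were centred on the exon controls. The other core protein, Uqcrc1, changed by 0.01 (SE 0.079) and the Rieske iron-sulphur protein Uqcrfs1 by -0.17 (SE 0.10). Uqcr11, with group means of 7.04, 7.10, 6.91 and 6.87 in inulin+TsSP, TsSP, inulin and LPS alone, varied within groups by SDs of 0.14 to 0.45 and showed a change of 0.18 (adjusted p = 0.536). Uqcrq changed by 0.09 and Uqcr10 by -0.02. Within an array, Uqcrh minus each of the other 7 genes was larger with TsSP by 0.68 (Uqcrb) to 1.33 (Uqcrc2). In each of the 7 pairs the range with TsSP did not overlap the range without. Every pair holds Uqcrh, the gene with the largest change, so the pairs mostly repeat its own change and add no separate support. The proteins of this complex are held in fixed numbers, and the signals of its probe sets did not change by equal amounts. Since each probe set has its own response, whether the transcripts themselves changed out of proportion was not tested.

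Complex II showed the same kind of unevenness on a smaller scale. Sdhd, one of the anchors that hold succinate dehydrogenase in the inner membrane, had 12.60, 12.74 and 12.76 in inulin+TsSP and 12.65, 12.81 and 12.75 in TsSP, against 12.50, 12.27 and 12.29 in inulin and 12.28, 12.27 and 12.30 in LPS alone (change 0.40, SE 0.079, adjusted p = 0.00233). The other anchor, Sdhc, had 10.71, 10.77 and 10.65 in inulin+TsSP and 10.71, 10.75 and 10.94 in TsSP, against 10.50, 10.35 and 10.59 in inulin and 10.43, 10.22 and 10.30 in LPS alone (change 0.36, SE 0.084, adjusted p = 0.00757). For both anchors the 6 arrays with TsSP were above the 6 without.

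The catalytic part of complex II did not pass the test. Sdha, the flavoprotein that oxidises succinate, had 9.97, 10.29 and 10.16 in inulin+TsSP and 10.18, 10.25 and 10.10 in TsSP, against 10.25, 10.52 and 10.28 in inulin and 10.61, 10.37 and 10.35 in LPS alone. The change was -0.24 (SE 0.094, adjusted p = 0.0883), with overlap between the groups, and it was called lower after centring on the exon controls (-0.40). Sdhb, the iron-sulphur subunit, had group means of 13.49, 13.65, 13.51 and 13.40 in inulin+TsSP, TsSP, inulin and LPS alone, and a change of 0.11 (SE 0.09, adjusted p = 0.443). Sdhd and Sdha had the highest and the lowest change of this complex, and no other pair of its genes was compared. Their difference, Sdhd minus Sdha, ran from 2.45 to 2.65 on arrays with TsSP and from 1.67 to 2.25 on those without, a change of 0.64.

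In complex I, 12 of 36 structural subunits rose and 0 fell with TsSP, beside 14.8% of all genes and 28.5% of those above background that rose, and the median change was 0.22. After centring on the exon controls 1 was higher and 1 lower. Of the 20 accessory subunits of the membrane arm 9 rose, of the 10 of the matrix arm 2, and of the 6 core subunits of the electron-carrying arm 1. Ndufa13, also known as GRIM19 and first described in interferon and retinoic acid induced cell death, had 13.05, 12.91 and 12.96 in inulin+TsSP and 12.71, 12.83 and 12.97 in TsSP, against 12.57, 12.40 and 12.49 in inulin and 12.26, 12.45 and 12.38 in LPS alone. No array without TsSP reached the lowest with it (change 0.48, SE 0.081, adjusted p = 0.000808).

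Ndufv2, an iron-sulphur protein of the NADH-oxidising tip, had 13.31, 13.29 and 13.35 in inulin+TsSP and 13.46, 13.39 and 13.54 in TsSP, against 12.93, 13.03 and 12.96 in inulin and 13.20, 12.95 and 13.20 in LPS alone (change 0.35, SE 0.078, adjusted p = 0.00593). It was the only one of the 6 core subunits measured (Ndufv1, Ndufv2, Ndufs1, Ndufs3, Ndufs7 and Ndufs8) to be called. Ndufs1, which also carries iron-sulphur clusters, changed by -0.07 (SE 0.096, adjusted p = 0.678). Ndufs6, a zinc-binding subunit added late in assembly, had 11.16, 11.35 and 11.41 in inulin+TsSP and 11.28, 11.29 and 11.26 in TsSP, against 11.14, 11.22 and 10.83 in inulin and 10.70, 10.79 and 10.77 in LPS alone. Arrays with inulin overlapped here, and those with LPS alone lay below all others (change 0.39, adjusted p = 0.0071). Ndufv3, the other matrix-arm subunit that rose, changed by 0.35 (adjusted p = 0.0326), a call lost under 10 of 20 other settings.

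The other membrane-arm subunits that rose did so by 0.26 to 0.41: Ndufa11 by 0.41 (adjusted p = 0.0126), Ndufb10 by 0.40 (adjusted p = 0.00876), Ndufb4 by 0.33, Ndufa3 by 0.32, Ndufb9 by 0.31, Ndufb4b by 0.27, Ndufb11 by 0.27 and Ndufc1 by 0.26. The last 6 of these had adjusted p-values of 0.0132 to 0.0466, and the calls of Ndufb11, Ndufa3 and Ndufc1 were lost under 16, 11 and 10 of 20 other settings. Ndufb10, a disulphide-bonded subunit of the membrane arm, had 8.94, 9.09 and 9.07 in inulin+TsSP, 8.53, 8.94 and 8.68 in TsSP and 8.80, 8.74 and 8.57 in inulin, against 8.17, 8.40 and 8.21 in LPS alone. Inulin overlapped TsSP here while LPS alone stood below the rest. Ndufb11 had signals of 8.01 to 8.29 over the 6 arrays with TsSP, against 7.67 to 8.14 over the 6 without, and Ndufb9 had 14.86 to 15.02 against 14.49 to 14.81. Ndufa10, with the lowest change of the 36, had -0.16 (SE 0.084, adjusted p = 0.222), and was called lower after centring on the exon controls (-0.31).

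The 8 complex I assembly factors moved both ways. They guide the subunits together and are absent from the finished enzyme. Ndufaf6 had 7.77, 7.79 and 8.10 in inulin+TsSP and 8.07, 7.45 and 8.01 in TsSP, against 8.66, 8.92 and 8.07 in inulin and 8.57, 8.49 and 8.34 in LPS alone. With TsSP it fell by 0.64 log2 units (SE 0.16, adjusted p = 0.0102), although 1 inulin array lay among those with TsSP. Ndufaf3 and Ndufaf4 are known as partners in building the ubiquinone-binding module, and they moved in opposite directions. Ndufaf3 had 9.82, 9.42 and 10.04 in inulin+TsSP and 9.95, 10.19 and 9.78 in TsSP, against 9.63, 9.44 and 9.09 in inulin and 9.08, 9.36 and 9.31 in LPS alone (change 0.55, SE 0.14, adjusted p = 0.0103). Ndufaf4 had 11.13, 11.08 and 11.32 in inulin+TsSP and 11.37, 11.20 and 11.06 in TsSP, against 11.55, 11.30 and 11.75 in inulin and 11.44, 11.47 and 11.43 in LPS alone. The change of -0.29 (SE 0.099, adjusted p = 0.0472) came with a small overlap and was lost under 11 of 20 other settings. The remaining 5 factors did not pass the test, among them Ndufaf2 at -0.01 (adjusted p = 0.972).

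**Figure D2:**
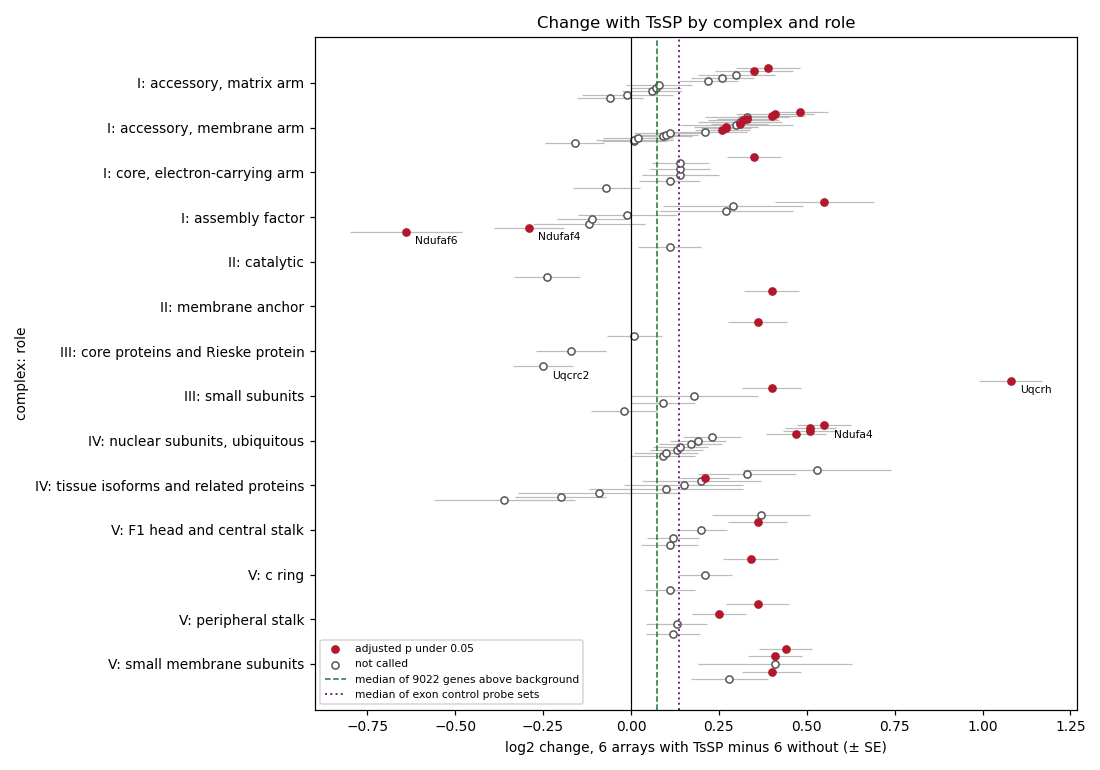
Log2 change with TsSP (6 arrays with minus 6 without, horizontal axis) of each of the 93 genes, with bars of 1 SE, sorted by complex and role down the page; filled points passed an adjusted p of 0.05. Vertical lines mark the medians of the genes above background (0.073) and of the exon controls (0.138), and the membrane anchors of complex II and the small membrane subunits of complex V sit to the right of both.

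In complex IV, cytochrome c oxidase, 5 of 20 genes rose and 0 fell (4 and 1 after exon control centring). Beside this, 14.8% of all genes and 28.5% of those above background rose. Of the 11 ubiquitous nuclear subunits of complex IV 4 rose, and these 4 also rose in the comparison of TsSP with LPS alone and in that of TsSP added to inulin. Ndufa4, named for complex I but known as a subunit of cytochrome c oxidase, had 14.49, 14.41 and 14.54 in inulin+TsSP and 14.55, 14.54 and 14.60 in TsSP, against 13.96, 14.05 and 13.96 in inulin and 13.95, 14.10 and 13.83 in LPS alone (change 0.55, SE 0.077, adjusted p = 0.000212). Cox7a2 had 12.41, 12.41 and 12.54 in inulin+TsSP and 12.43, 12.53 and 12.38 in TsSP, against 11.96, 12.03 and 12.00 in inulin and 11.95, 11.87 and 11.86 in LPS alone (change 0.51, SE 0.073, adjusted p = 0.000247). Both genes separated the arrays with TsSP cleanly from those without.

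Cox7b, a small membrane subunit, had 14.30, 14.15 and 14.40 in inulin+TsSP and 14.21, 14.28 and 14.25 in TsSP, against 13.76, 13.89 and 13.70 in inulin and 13.79, 13.72 and 13.67 in LPS alone (change 0.51, SE 0.078, adjusted p = 0.00042). Cox6b1, which faces the intermembrane space where the enzyme forms dimers, had 14.02, 13.82 and 13.83 in inulin+TsSP and 13.68, 13.93 and 13.88 in TsSP, against 13.37, 13.61 and 13.52 in inulin and 13.23, 13.33 and 13.27 in LPS alone (change 0.47, SE 0.085, adjusted p = 0.00133). Here the lowest array with TsSP stood just above the highest inulin array. The other 7 ubiquitous subunits had changes of 0.09 to 0.23 and did not pass the test. They were Cox5a (0.09), Cox6a1 (0.10, adjusted p = 0.477), Cox6c (0.13), Cox7c (0.14), Cox5b (0.17), Cox4i1 (0.19) and Cox8a (0.23).

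**Figure D3:**
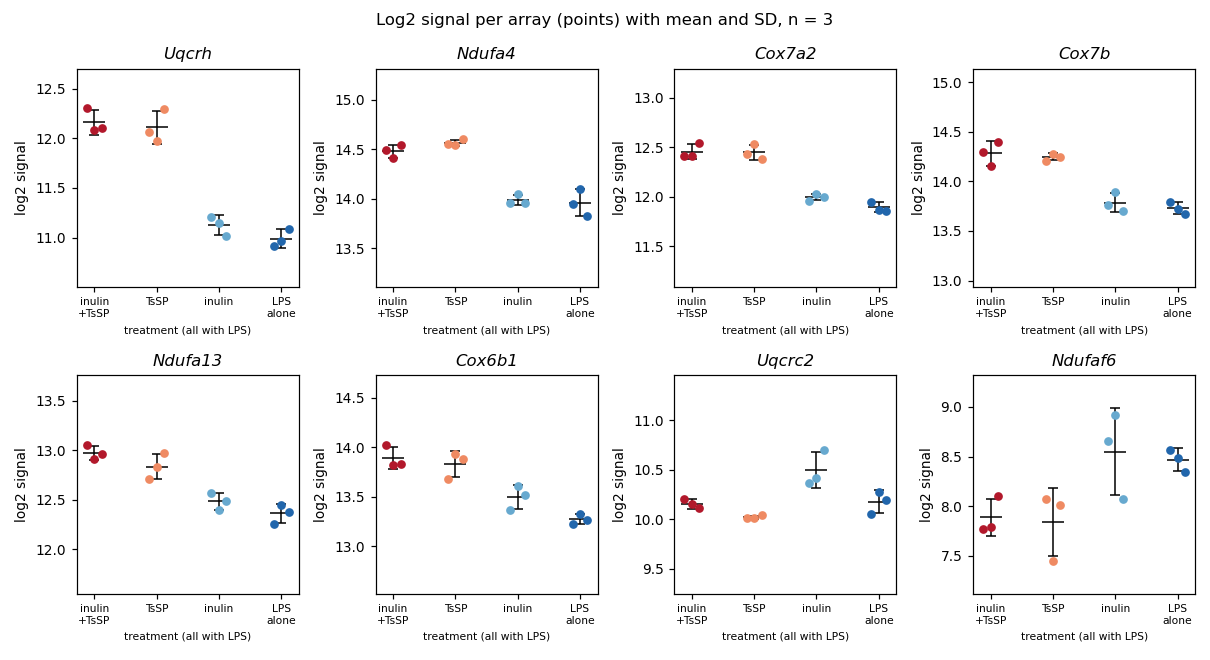
Log2 signal on each array (points) with the group mean and SD (n = 3) for 8 genes, in inulin+TsSP, TsSP, inulin and LPS alone from left to right; each vertical axis has its own range. In the first 6 genes the groups with TsSP lie above those without, while Uqcrc2 and Ndufaf6 lie lower with TsSP and overlap.

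Isoform pairs gave no exchange of one isoform for another that the arrays could measure. Cox4i2, the isoform known from lung and from low oxygen, was below background on all 12 arrays, with group means of 3.59, 3.72, 3.20 and 3.71 in inulin+TsSP, TsSP, inulin and LPS alone. Cox4i1, its ubiquitous partner, was above background on all of them, with 14.13, 14.04, 13.98 and 13.80 in the same order. Ndufa4l2, the relative of Ndufa4 known as a hypoxia-inducible gene, was also below background on every array, at 2.23 to 3.25 over the arrays with TsSP and 2.46 to 2.91 over those without. So the 2 low-oxygen relatives of complex IV subunits gave only an upper bound in every group. Cox6b2, Cox7b2 and Cox8c, known from testis, and Cox8b, known from muscle, were below background on all arrays too, with changes that did not pass the test (0.33, 0.10, -0.09 and -0.36, each in the order named).

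Muscle and heart isoforms were mixed. Cox7a1 was above background on 11 of 12 arrays, with 7.69, 6.68 and 7.30 in inulin+TsSP, 7.17, 6.91 and 7.34 in TsSP, 6.68, 6.92 and 6.71 in inulin, and 5.94, 7.11 and 6.55 in LPS alone, the first of which was the array below background. The groups overlapped (change 0.53, SE 0.21, adjusted p = 0.0903). Cox6a2 was above background on all 12, with 11.66, 11.48 and 11.04 in inulin+TsSP and 11.21, 11.57 and 11.08 in TsSP, against 11.85, 11.77 and 11.53 in inulin and 11.17, 11.54 and 11.40 in LPS alone (change -0.20, SE 0.13, adjusted p = 0.328). Of 5 striated muscle markers, Acta1, Myog and Myh7 were below background on all arrays. Ckm, muscle creatine kinase, was above background on all, with group means of 7.12, 7.28, 7.57 and 7.98 in inulin+TsSP, TsSP, inulin and LPS alone. Tnnt2, cardiac troponin T, was below background on every array of inulin+TsSP (mean 5.76) and TsSP (5.85), against means of 8.49 in inulin and 8.11 in LPS alone, and was at least 4.23-fold lower with TsSP (adjusted p = 5.1e-08). The summed log2 signal of the 5 muscle markers was 22.6 to 24.0 in inulin+TsSP, 23.3 to 23.9 in TsSP, 26.2 to 27.4 in inulin and 26.6 to 27.6 in LPS alone, and its part in the values of Cox6a2 and Cox7a1 was not tested.

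Where both members of a pair were above background on all arrays, the within-array difference between them was compared between the 6 arrays with TsSP and the 6 without by an exact permutation test, two-sided, over 5 pairs, a comparison added after the values were seen. Cox7a2 minus Cox7a2l ran from -0.55 to -0.39 with TsSP and from -0.86 to -0.71 without, a change of 0.30 (exact p = 0.00216, the smallest that 6 against 6 can give, and 0.00541 adjusted over the pairs). Cox7a2l, which is known for joining complexes III and IV into supercomplexes, itself had 12.83, 12.92 and 12.97 in inulin+TsSP and 12.93, 12.92 and 12.94 in TsSP, against 12.71, 12.77 and 12.71 in inulin and 12.68, 12.74 and 12.65 in LPS alone. Its rise of 0.21 (SE 0.07, adjusted p = 0.0451) was lost under 15 of 20 other settings, and after centring on the exon controls it was 0.05 (not called), against 0.35 for Cox7a2 (called).

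The 3 genes for the c subunit of ATP synthase, Atp5g1, Atp5g2 and Atp5g3, encode the same mature protein and differ in their import sequences. Atp5g1 had 15.03, 15.08 and 15.04 in inulin+TsSP and 14.95, 15.09 and 14.97 in TsSP, against 14.61, 14.69 and 14.75 in inulin and 14.54, 14.79 and 14.77 in LPS alone (change 0.34, SE 0.078, adjusted p = 0.007). Atp5g2 changed by 0.11 (SE 0.071, adjusted p = 0.311) and Atp5g3 by 0.21 (SE 0.076, adjusted p = 0.0656). The difference Atp5g1 minus Atp5g2 ran from -0.42 to -0.31 with TsSP and from -0.70 to -0.46 without, a change of 0.22 (exact permutation p = 0.00216, adjusted p = 0.00541). The other 3 pairs, with changes of 0.31 for Cox6a1 minus Cox6a2, 0.13 for Atp5g1 minus Atp5g3 and -0.10 for Atp5g2 minus Atp5g3, each had an adjusted p of 0.0628 by the same exact test. These are unequal changes within an array and do not say which member of a pair stayed level.

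**Figure D4:**
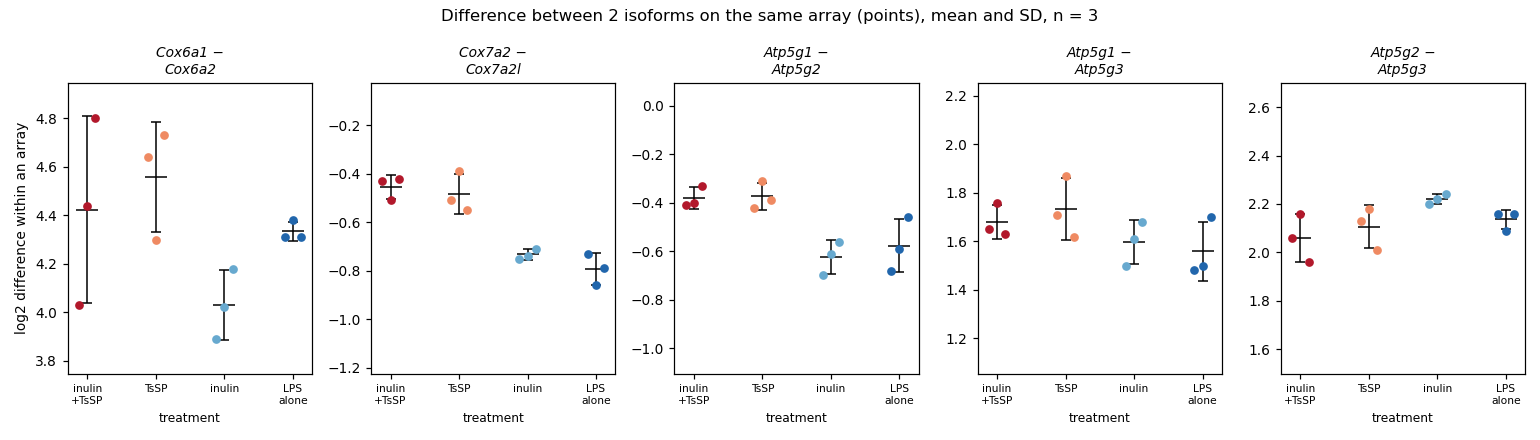
Difference in log2 signal between the members of 5 isoform pairs on the same array (points), with mean and SD (n = 3), in inulin+TsSP, TsSP, inulin and LPS alone from left to right; each vertical axis has its own range. Cox7a2 minus Cox7a2l and Atp5g1 minus Atp5g2 are higher on every array with TsSP than on every array without.

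In complex V, 7 of 17 genes rose and 0 fell, beside the same shares of 14.8% and 28.5% for rises, and 2 were higher and 0 lower after centring on the exon controls. All 17 had changes above 0, from 0.11 to 0.44, on the deposited values. Of the 5 small membrane subunits, which lie where ATP synthase forms dimers or seal its membrane part, 3 rose. Atp5mpl had 13.46, 13.46 and 13.47 in inulin+TsSP and 13.42, 13.46 and 13.50 in TsSP, against 13.00, 13.18 and 13.13 in inulin and 12.85, 13.06 and 12.93 in LPS alone (change 0.44, SE 0.075, adjusted p = 0.000896). Atp5j2, the f subunit, had 14.55, 14.44 and 14.50 in inulin+TsSP and 14.33, 14.51 and 14.49 in TsSP, against 14.23, 14.22 and 14.04 in inulin and 13.96, 13.94 and 13.95 in LPS alone (change 0.41, SE 0.076, adjusted p = 0.00156). Both genes kept the arrays with TsSP apart from those without.

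Atp5md, also known as DAPIT or Usmg5, had 14.40, 14.37 and 14.48 in inulin+TsSP and 14.13, 14.47 and 14.42 in TsSP, against 14.04, 14.14 and 13.97 in inulin and 13.94, 13.90 and 13.89 in LPS alone (change 0.40, SE 0.083, adjusted p = 0.00344), with 1 TsSP array just below the highest inulin array. Elsewhere in the enzyme, Atp5d of the central stalk rose by 0.36 (adjusted p = 0.00815), Atp5j by 0.36 (adjusted p = 0.00992) and Atp5h by 0.25 (adjusted p = 0.0298, lost under 10 of 20 other settings), with Atp5j and Atp5h both in the peripheral stalk. The catalytic head did not pass the test. Atp5b, the beta subunit that makes ATP, had group means of 16.10, 16.00, 15.96 and 15.93 in inulin+TsSP, TsSP, inulin and LPS alone (change 0.11, SE 0.082, adjusted p = 0.401), and Atp5a1, the alpha subunit, changed by 0.12 (SE 0.074, adjusted p = 0.291). Atp5k, the e subunit, varied too widely for a change of 0.41 (SE 0.22) to pass, with 7.19, 7.90 and 6.62 in inulin+TsSP and 7.28, 7.31 and 6.90 in TsSP, against 6.84, 7.62 and 6.94 in inulin and 6.59, 6.73 and 6.02 in LPS alone. In LPS alone it was above background on only 2 of 3 arrays.

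Split by inulin, the comparison of TsSP with LPS alone called 20 of the 93 genes higher (21.5%, with 11.0% of all genes) and 0 lower (7.08% of all genes). TsSP added to inulin called 9 higher (9.68%, with 8.66% of all genes) and 0 lower (7.99% of all genes). Inulin+TsSP against LPS alone called 18 higher (19.4%, with 10.3% of all genes) and 0 lower (7.3% of all genes). After centring on the exon controls the counts were 2 higher and 4 lower for TsSP against LPS alone, 2 and 2 for TsSP added to inulin, and 4 and 2 for inulin+TsSP against LPS alone. The lack of falls also depended on the test. On the deposited values, testing only genes above background called 1, 4 and 2 of the 93 lower in the same order. A mean-variance trend called 2, 2 and 0 lower. The median changes of the 93 genes were 0.239, 0.147 and 0.228 in these comparisons. The first and the last share the LPS arrays. At an unadjusted p under 0.05, in either direction, they held 40 (43.0%), 27 (29.0%) and 41 (44.1%) of the 93, beside 28.7%, 27.4% and 28.6% of all genes, so TsSP added to inulin was at the share of all genes.

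Between the 20 and the 9, 7 genes were common, 35.0% of the first list and 77.8% of the second. These were Atp5mpl, Cox6b1, Cox7a2, Cox7b, Ndufa13, Ndufa4 and Uqcrh. Uqcrb and Atp5g1 were called when TsSP was added to inulin and not against LPS alone. A further 13 were called against LPS alone only, and among these Atp5e (0.60, adjusted p = 0.0488) and Ndufa6 (0.42, adjusted p = 0.0393) were not called over all 12 arrays (0.37, adjusted p = 0.0674, and 0.26, adjusted p = 0.0505). In Ndufa6, an accessory subunit of the matrix arm, the arrays had 11.33, 11.23 and 11.50 in inulin+TsSP, 11.25, 11.38 and 11.57 in TsSP and 11.28, 11.35 and 11.11 in inulin, against 10.97, 10.99 and 10.99 in LPS alone, so LPS alone stood below the other 3 groups.

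The difference between the comparisons with and without inulin was not called for any gene. In the interaction 0 of the 93 were called (0.0% of all genes), and at an unadjusted p under 0.05 there was 1 of the 93 and 1089 of all genes. That gene was Ndufaf2 (adjusted p = 0.815), a chaperone of late complex I assembly, with 6.22, 6.50 and 7.00 in inulin+TsSP, 7.02, 6.74 and 7.19 in TsSP, 7.10, 7.22 and 6.96 in inulin and 6.48, 6.39 and 6.60 in LPS alone. Its signals lay near the background limit, and it was above background on only 2 of 3 inulin+TsSP arrays.

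Inulin itself called no gene. Inulin against LPS alone called 0 of the 93 (0.0% of all genes by limma), with 4 of the 93 and 1143 of all genes at an unadjusted p under 0.05 and a smallest adjusted p of 0.66 for Ndufb10. Inulin added to TsSP called 0 (0.0% of all genes), with 2 of the 93 and 971 of all genes at an unadjusted p under 0.05 and a smallest adjusted p of 0.978 for Ndufb2. No other setting tried called a respiratory chain gene in either comparison. The median change of the 93 genes was 0.102 for inulin against LPS alone, beside 0.059 for the exon controls, and 0.001 for inulin added to TsSP. These p-values do not show that inulin left the genes alone.

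**Figure D5:**
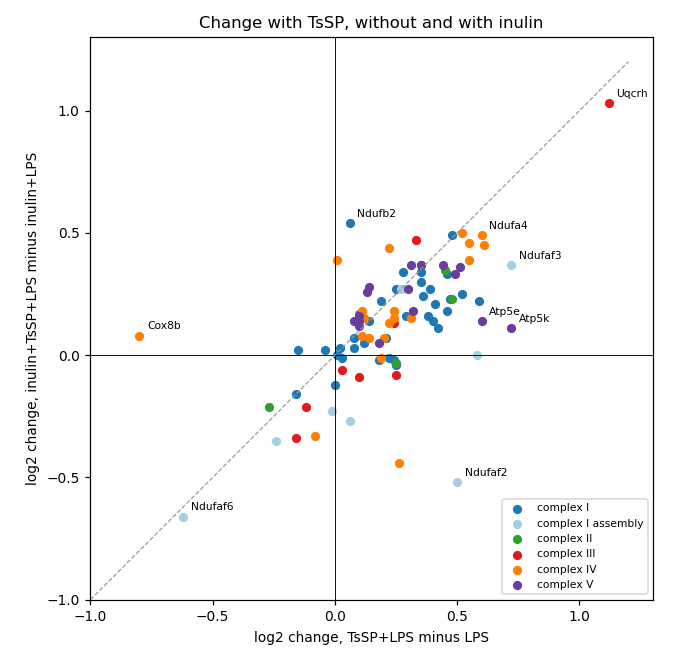
Log2 change with TsSP against LPS alone (horizontal axis) and with TsSP added to inulin (vertical axis) for the 93 genes, coloured by complex, with the line of equal change dashed. The 2 comparisons share no array; Uqcrh lies near the line at 1.12 and 1.03, and Cox8b, below background on every array, and Ndufaf2 lie far from it.

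Companion genes of the chain, taken from named lists, moved both ways, some of them by more than any subunit. Their counts stand beside 14.8% of all genes higher and 11.0% lower with TsSP as deposited. Among genes above background, as most of the listed genes were, those shares were 28.5% and 20.2%. After centring on the exon controls 9.39% of all genes were higher and 19.6% lower. Among 31 assembly factors of complexes II to V measured, 7 rose and 6 fell with TsSP, and 3 were higher and 8 lower after that centring. Ttc19, which clears Rieske protein fragments from complex III, rose by 1.28 (adjusted p = 6.84e-06), with group means of 11.26 and 11.23 in inulin+TsSP and TsSP, against 9.96 and 9.98 in inulin and LPS alone. Cox15 and Cox10, which make the haem A of cytochrome c oxidase, fell by 0.74 (adjusted p = 6.89e-05) and 0.65 (adjusted p = 0.000258), and Cox15 had means of 13.24 and 13.19 in inulin+TsSP and TsSP, against 13.98 and 13.93 in inulin and LPS alone. Coa5 fell by 0.64, Cox18, which inserts a mitochondrially encoded subunit, by 0.56, and Coa6, a copper-delivery factor, rose by 0.70. Both haem A enzymes fell while 4 of the ubiquitous subunits of the same complex rose, and the difference between them was not tested.

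Complex I assembly factors without an Nduf symbol were called 3 times higher and 2 times lower among 12 measured (2 and 2 after exon control centring). Acad9, which works with Ndufaf1 and Ecsit, fell by 0.84 (adjusted p = 0.000135), with means of 10.36 and 10.39 in inulin+TsSP and TsSP, against 11.28 and 11.16 in inulin and LPS alone. Foxred1 fell by 0.53 (adjusted p = 0.0143), while Dmac1 rose by 0.52, Tmem126b by 0.50 and Tmem126a by 0.44.

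Of 21 electron carriers, their enzymes and other subunits measured, 4 rose and 2 fell, 1 of the 4 being Atp5md, counted above, and the balance turned to 1 higher and 6 lower after centring on the exon controls. Pdss2, needed for the ubiquinone tail, fell by 0.69 and Gpd2, the mitochondrial glycerol 3-phosphate dehydrogenase, by 0.52. Coq10a rose by 0.76 and Etfdh, which feeds electrons from fatty acid oxidation to ubiquinone, by 0.28. Aox1, an aldehyde oxidase that the list held although it is no part of the chain, was called at 0.51 but was below background on all 12 arrays. Cytochrome c, from Cycs, changed by -0.18 (adjusted p = 0.135) and cytochrome c1, from Cyc1, by -0.08 (adjusted p = 0.662), so neither neighbour of the hinge protein in the electron path was called.

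Of 23 genes of the TCA cycle and pyruvate dehydrogenase 4 rose and 3 fell, against 3 higher and 5 lower after exon control centring. Pdk1, a kinase that shuts off pyruvate dehydrogenase, had 10.27, 10.36 and 10.33 in inulin+TsSP and 10.17, 9.96 and 10.47 in TsSP, against 6.46, 7.24 and 6.92 in inulin and 6.70, 5.31 and 6.54 in LPS alone, where it was above background on 2 of 3 arrays, and was at least 11.9-fold higher with TsSP (adjusted p = 2.54e-07). Pdk2, a related kinase, was below background in inulin and LPS alone and at least 2.61-fold higher with TsSP (adjusted p = 8.97e-06). The phosphatase Pdp2 rose by 0.70 and malate dehydrogenase Mdh2 by 0.30, while Pdhb, Dlst and Pdhx fell by 0.34, 0.40 and 0.37.

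Of 13 genes of mitochondrial biogenesis 3 rose and 3 fell, against 1 higher and 4 lower after exon control centring. Tefm and Tfb1m, of mitochondrial transcription and ribosomal RNA methylation, fell by 0.91 and 0.59, and Tfam, which packages mitochondrial DNA, fell by 0.54 (adjusted p = 0.00438). Tfb2m rose by 0.40 and Yy1 by 0.25. The coactivator Ppargc1b, above background on all 6 arrays with TsSP and on 2 of 6 without, was at least 1.53-fold higher with TsSP (adjusted p = 0.003). Nrf1 and Gabpa, whose motifs are counted above, changed by -0.12 and -0.10 and did not pass the test.

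Among 15 oxygen-responsive mitochondrial regulators 8 rose and 1 fell (7 and 1 after exon control centring). Bnip3, a mitophagy receptor, had 13.34, 13.40 and 13.46 in inulin+TsSP and 13.40, 13.13 and 13.26 in TsSP, against 9.30, 9.25 and 9.21 in inulin and 8.81, 9.36 and 9.02 in LPS alone (change 4.17, adjusted p = 3.08e-10). Egln1, a prolyl hydroxylase that marks HIF-1 alpha for destruction, rose by 2.89, Mxi1, an antagonist of MYC, by 2.58, Hif1a by 1.40, Bnip3l by 1.19 and Lonp1 by 0.29. Higd1a, a small protein that binds the chain, rose by 1.02, with means of 9.71 and 9.78 in inulin+TsSP and TsSP, against 8.81 and 8.63 in inulin and LPS alone. Acod1, whose product itaconate inhibits succinate dehydrogenase, fell by 0.44 (adjusted p = 0.000658). Ndufa4l2 and Cox4i2 belong to this list as well and were below background throughout, as was Egln3.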

How the data were processed

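RNA from RAW 264.7 cells was labelled with biotin and hybridised to an Affymetrix mouse array, 1 array per sample, per the labels' protocols. The authors' deposited table holds log2 signals for 28846 probe sets. Base 2 was inferred from their range (1.32 to 18.94). How background was corrected and arrays were scaled, and with what software, is not given in the sources used here. Any compression or scaling in that step carries into every change. Values were used as deposited. Gene names came from the platform annotation, and 19572 probe sets with 1 symbol matched RefSeq (GRCm38.p6). For 55 genes with several probe sets the one with the highest mean stood for the gene; none of the 93 was among them.

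One limma model (3.58.1, R 4.3.3; lmFit and eBayes) with a mean per group was fitted to all 12 arrays (8 residual and 3.35 prior degrees of freedom) and gave 7 contrasts, adjusted over 19505 genes. The fit was tested on simulated data. A bound ("at least N-fold") sets the dimmer group's arrays at the higher of the gene's signal and the brightest background probe. The number of arrays limits the precision. The isoform comparison, the within-array differences in complexes II and III, and the count of genes whose groups do not overlap were added after the data were seen. Values are given for members called in any contrast, the highest and lowest signal and change of each complex, all isoform sets, and of each companion list up to 6 called genes by smallest p, or all where 5 or fewer were called in a direction. The members and lists were chosen with earlier results of these data known. Motifs were searched on both strands. Exact tests used scipy 1.17.1 and plots matplotlib 3.10.9 (Python 3.11.15).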

Additional observations from a re-analysis of the deposited data

How the results depend on the processing

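The change with TsSP and the interaction were repeated under 20 other settings, and the comparisons of 2 groups also with only their own arrays. No call of the 31 genes for the change with TsSP reversed, 9 were kept under all 20 (Uqcrh, Ndufa4, Cox7a2, Cox7b, Cox6b1, Ndufa13, Atp5mpl, Atp5j2 and Ndufaf6), 24 were kept whichever of the 12 arrays was left out, and 14 were lost only when arrays were centred on the exon controls. Ndufb10 was lost under quantile normalization as well. The other 7, Atp5h, Cox7a2l, Ndufa3, Ndufaf4, Ndufb11, Ndufc1 and Ndufv3, each lost the call under 10 to 16 settings, among them leaving out a certain array in each of the 4 groups. The counts below are of respiratory chain genes called in either direction. Centring on the exon controls gave 15 for the change with TsSP, where the deposited values gave 31, then 6 for TsSP against LPS alone (20 as deposited), 4 for TsSP added to inulin (9) and 6 for inulin+TsSP against LPS alone (18). A mean-variance trend gave 45, 35, 23 and 33 in the same order. Testing only genes above background, so fewer tests, gave 45, 35, 25 and 37. Fitting only the arrays of the groups compared, so fewer samples, gave 9 for TsSP against LPS alone and 10 for inulin+TsSP against LPS alone. Quantile normalization gave 15 for TsSP added to inulin. Apart from fewer tests or samples, the cause was not tested.

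Leaving out 1 array gave 24 to 32 for the change with TsSP, 11 to 19 for TsSP against LPS alone, 6 to 9 for TsSP added to inulin, 11 to 19 for inulin+TsSP against LPS alone and 0 in the inulin comparisons and the interaction. The count of 11 for TsSP against LPS alone came without the second or without the third TsSP array, and that for inulin+TsSP without the third array of LPS alone. With the replicate block, 26 genes were called for the change with TsSP. Same-numbered arrays did not deviate together (r of -0.094 to 0.105 over 18 pairs, against -0.127 to 0.112 for other pairs), so the numbers are not taken as pairs.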
